A study of Mus musculus with 20 samples.

Results

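The Hippo, YAP and TEAD genes described here are 10 genes of the mouse liver, Yap1, Wwtr1, Tead1, Tead2, Tead3, Tead4, Ankrd1, Amotl2, Lats2 and Vgll3. They were chosen by name from the 46603 gene identifiers in the count data, and all 10 were found. Yap1 encodes YAP and Wwtr1 encodes its paralog TAZ, co-activators that carry no DNA-binding domain of their own. The Hippo pathway is a kinase cascade in which MST kinases activate LATS kinases, and LATS kinases phosphorylate YAP and TAZ and hold them in the cytoplasm. Unphosphorylated YAP and TAZ enter the nucleus and bind TEAD1 to TEAD4, transcription factors that recruit them to enhancers and promoters of genes for growth, matrix and cytoskeleton. In liver the pathway is known for its control of organ size and of the identity of hepatocytes and bile duct cells. Most of that control acts on protein, so a transcript level says nothing about how much YAP or TAZ is in the nucleus.

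RNA was measured by poly(A) RNA sequencing of whole liver in 20 libraries from male mice aged 2 months, in 4 groups of 5. Wild-type mice (WT) were of the strain the labels write as C57BL6/J and were bought from a vendor. EedHepKO mice (KO) carried a Cre transgene under the albumin promoter (Alb:Cre) and Eed alleles with loxP sites at exons 3 and 6. Per the labels these mice lack functional EED in hepatocytes, and the state of Eed in the other liver cells was not measured here. The albumin promoter is also known to be active in the precursors that hepatocytes and bile duct cells share. Eed encodes a core subunit of polycomb repressive complex 2 (PRC2). Baseline libraries came from lobes 1, 2 and 3, taken out at partial hepatectomy (PHx), and libraries after PHx from lobes 4, 5 and 6 of the same mice. Those after PHx were taken at 30 h from 1 mouse of each genotype and at 40 h and 48 h from 2 mice each of WT and KO. WT and KO mice came from different colonies, so genotype and colony cannot be told apart, and neither can the response to PHx and the lobe. No sham-operated group is in the design. The comparisons ask how loss of PRC2 in hepatocytes goes with the expression of these genes at rest and during regeneration.

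Total counts ran from 21634890 to 30461351 per library. Levels are given as CPM, the counts scaled to a common library total of 1e+06 after correction for composition. The level of Eed at baseline averaged 16.8 ± 1.09 CPM for WT and 5.64 ± 1.44 CPM for KO, and after PHx 18.4 ± 3.98 CPM and 4.62 ± 1.13 CPM (SD, 5 libraries each). No KO library reached a WT library. KO livers thus kept reads of Eed, and the cells they came from were not measured. The counts are per gene, so reads from exons outside the loxP sites could not be told apart from intact transcript. All 8 hepatocyte markers were present in every group, with summed levels from 123772 to 144335 CPM in WT at baseline, 73542 to 130084 CPM in WT after PHx, 80775 to 106565 CPM in KO at baseline and 44375 to 107113 CPM in KO after PHx.

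Because several of the 10 genes are known both as partners and as targets of TEAD factors, the promoter windows held by RefSeq (GRCm38.p6, 250 bases before to 50 bases after each annotated start) were searched for the core TEAD-binding motif, GGAATG, and for its reverse complement, CATTCC. Windows were found for 8 of the 10 genes, those without being Tead1 and Tead4. The motif was present for 7 of the 8 genes and in 9 of their 12 windows (75.0%), beside 14.7% of all 32851 windows. It was not found for Tead2. The 2 Wwtr1 windows overlap and hold the same site, which is therefore counted in both. One stretch per gene is shown, for Tead3 one that holds 2 matches, and for Ankrd1 both of its sites, since this gene is a widely used reporter of YAP activity. Each is 30 bases on the strand of the gene, 5′ to 3′, with every match in capitals.
Yap1, chr9:8004720-8004749, minus strand: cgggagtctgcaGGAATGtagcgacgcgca
Wwtr1, chr3:57576029-57576058, minus strand: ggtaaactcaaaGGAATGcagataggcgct
Tead3, chr17:28350697-28350726, minus strand: gctCATTCCgtaCATTCCggccatccccct
Ankrd1, first site, chr19:36120037-36120066, minus strand: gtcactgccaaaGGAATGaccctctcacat
Ankrd1, second site, chr19:36119950-36119979, minus strand: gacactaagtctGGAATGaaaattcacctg
Amotl2, chr9:102717727-102717756, plus strand: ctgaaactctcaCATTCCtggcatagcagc
Lats2, chr14:57746102-57746131, minus strand: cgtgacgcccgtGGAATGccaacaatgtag
Vgll3, chr16:65815114-65815143, plus strand: cccgcctccccaCATTCCggctaccctgcc

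A match of 6 letters is a description of the sequence and not a measured binding site. The first base of the Yap1 motif lies at position -141 from the start, those of Ankrd1 at -210 and -123, that of Amotl2 at -65, and that of Lats2 at 5. Tead3 held 1 match in one of its 3 windows and 3 in another.

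PRC2 is known to occupy promoters rich in CpG, so the 250 bases before the start are shown for Tead2 and Wwtr1, called higher in KO at both stages, and for Yap1, not called by genotype, a choice made with their values known. CpG dinucleotides are in capitals.
Tead2, chr7:45215542-45215791, plus strand: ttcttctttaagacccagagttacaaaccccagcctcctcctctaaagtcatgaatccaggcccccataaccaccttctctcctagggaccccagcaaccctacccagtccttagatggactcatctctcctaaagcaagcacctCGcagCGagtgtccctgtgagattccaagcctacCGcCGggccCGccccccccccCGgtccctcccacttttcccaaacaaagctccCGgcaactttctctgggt
Wwtr1, chr3:57575911-57576160, minus strand: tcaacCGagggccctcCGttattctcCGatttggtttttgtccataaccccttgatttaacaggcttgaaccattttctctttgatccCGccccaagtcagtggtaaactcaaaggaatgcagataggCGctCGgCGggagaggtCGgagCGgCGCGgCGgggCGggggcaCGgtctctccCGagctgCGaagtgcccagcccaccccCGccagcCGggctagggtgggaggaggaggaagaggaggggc
Yap1, chr9:8004597-8004846, minus strand: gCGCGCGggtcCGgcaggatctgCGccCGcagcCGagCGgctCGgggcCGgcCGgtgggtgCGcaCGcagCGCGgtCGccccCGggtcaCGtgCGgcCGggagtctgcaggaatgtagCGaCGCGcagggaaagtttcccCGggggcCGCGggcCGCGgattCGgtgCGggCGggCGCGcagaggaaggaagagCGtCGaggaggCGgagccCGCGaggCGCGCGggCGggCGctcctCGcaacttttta

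These stretches hold 7 CpG for Tead2, 18 for Wwtr1 and 44 for Yap1. Over the full windows of 300 bases, 62.1% of all windows had fewer CpG than Tead2, 73.5% and 71.9% fewer than the 2 windows of Wwtr1, and 99.0% fewer than Yap1. No histone mark was measured in these libraries, so the sequences are given as context only.

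Of the 10 genes 9 had enough counts to be tested, and Vgll3 did not. Against WT at baseline, KO livers held more Tead2, 9.72-fold, and more Wwtr1, 1.95-fold. After PHx the genotypes differed in the same direction for Tead2 (17.2-fold), Wwtr1 (2.36-fold), Tead4 (13.9-fold) and Lats2 (1.51-fold). No gene among the 9 was called lower in KO at either stage. The counts called were 2 of 9 at baseline, where 16% of the 14661 genes tested were called, 11.1% higher and 4.89% lower, and 4 of 9 after PHx, where 24.2% were called, 16% higher and 8.20% lower. The median log2 fold change of the 9 was 0.96 at baseline and 0.59 after PHx, beside -0.03 and -0.01 over all genes tested.

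**Figure D1:**
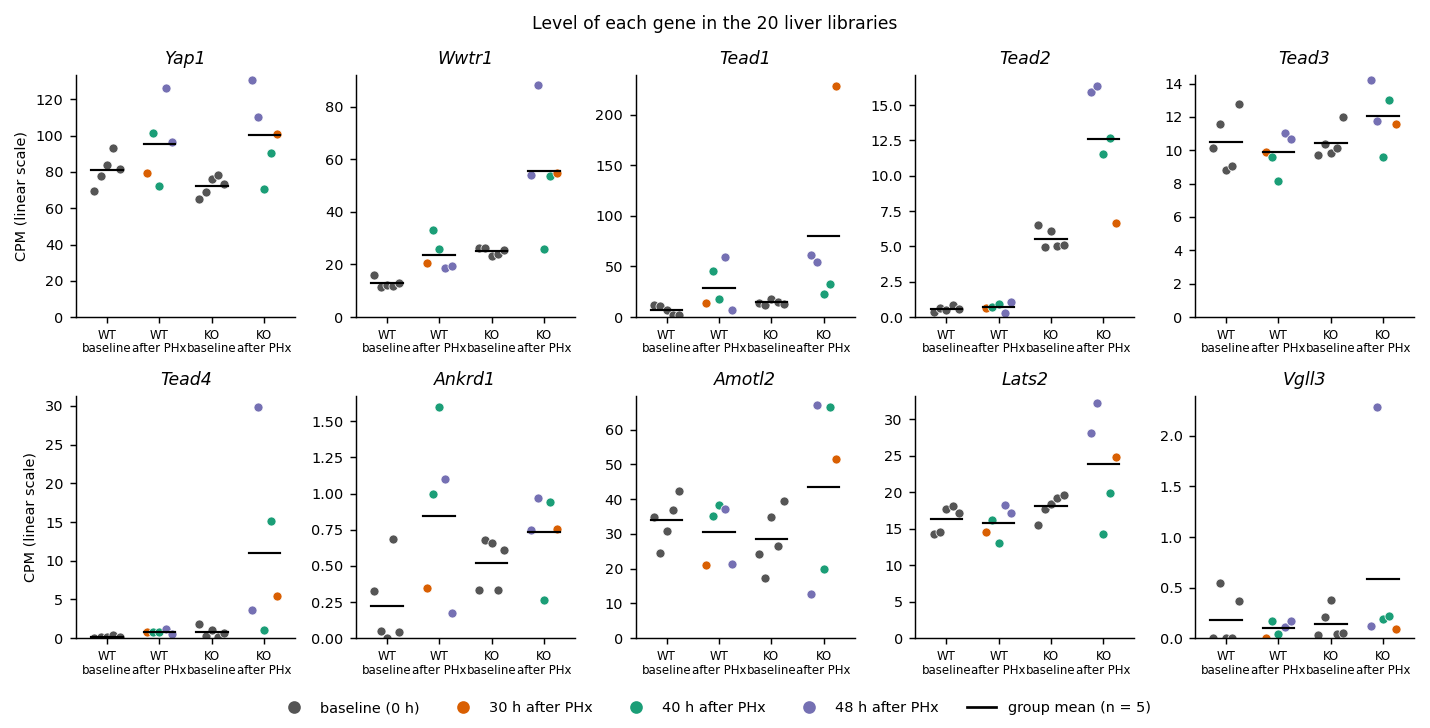
Level of each of the 10 genes in the 20 libraries, in CPM on a linear axis that starts at 0 and has its own range in each panel; points are libraries coloured by hours after PHx and bars are group means (n = 5). Tead2 and Wwtr1 in KO at baseline lie above every WT baseline library, Yap1 and Tead3 overlap between all 4 groups, and Tead1 in KO after PHx has 1 library, at 30 h, with 228 CPM.

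Yap1 (ENSMUSG00000053110, mm10 chromosome 9, 7931999 to 8004596, minus strand, protein coding) was the most abundant of the 10 per kilobase of exon in WT at both stages and in KO at baseline (8.76, 10.3 and 7.82 CPM per kb), while in KO after PHx Wwtr1 had 11.6 and Yap1 10.9 CPM per kb, both with overlapping libraries. In WT at baseline its level was 69.3, 77.9, 83.6, 93.0 and 81.6 CPM in replicates 1 to 5, and in KO at baseline 65.0, 68.8, 76.4, 78.3 and 73.4 CPM in replicates 7, 8, 10, 11 and 12. After PHx it was 79.2 CPM at 30 h, 101 and 72.4 CPM at 40 h and 126 and 96.7 CPM at 48 h in WT, and 101 CPM at 30 h, 70.4 and 90.6 CPM at 40 h and 130 and 110 CPM at 48 h in KO. The 4 groups overlapped, with the 48 h libraries of both genotypes among the highest. KO against WT differed by a log2 of -0.16 (SE 0.17, adjusted p 0.543) at baseline, with a 95% interval from -0.51 to 0.19, and by 0.08 (SE 0.17, adjusted p 0.764) after PHx, from -0.27 to 0.43. From baseline to PHx the level in WT moved by 0.23 (SE 0.17, adjusted p 0.351). In KO it rose by 0.48 (SE 0.17, adjusted p 0.039). That call was lost without 8 of the 10 KO libraries in turn and with the mouse number as a replicate block (log2 0.44, adjusted p 0.107). Gm20416 overlaps Yap1 on the other strand, and the strand setting of the counting is not given in the sources used here.

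Wwtr1 (ENSMUSG00000027803, chromosome 3, 57455649 to 57575910, minus strand, protein coding), the gene for TAZ, differed by genotype and also rose after PHx. Its levels in WT at baseline were 15.8, 11.5, 12, 11.7 and 13 CPM in replicates 1 to 5, and in KO at baseline 26.2, 26.1, 23.2, 24.1 and 25.4 CPM in replicates 7, 8, 10, 11 and 12. Every KO baseline library was above every WT baseline library. After PHx the WT libraries had 20.6 CPM at 30 h, 33 and 25.8 CPM at 40 h and 18.6 and 19.2 CPM at 48 h, each of them above the WT baseline libraries. In KO after PHx there were 54.7 CPM at 30 h, 26 and 53.7 CPM at 40 h and 54.0 and 88.3 CPM at 48 h. Replicate 10 of that group, at 40 h, was the only one within the WT range and also within the KO baseline range. KO exceeded WT by a log2 of 0.96 (SE 0.23, adjusted p 0.00737) at baseline and of 1.24 (SE 0.23, adjusted p 0.000665) after PHx. The response to PHx was 0.87 (SE 0.23, adjusted p 0.0125) in WT and 1.15 (SE 0.23, adjusted p 0.00224) in KO. In order of mean level the groups ran from WT baseline (12.8 ± 1.76 CPM, SD, n = 5) over WT after PHx (23.4 ± 6.04 CPM, SD, n = 5) and KO baseline (25 ± 1.30 CPM, SD, n = 5) to KO after PHx (55.3 ± 22.1 CPM, SD, n = 5). The middle pair overlapped, so resting KO liver and regenerating WT liver could not be ordered.

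Per kilobase of exon, Yap1 and Wwtr1 can be set side by side. Of the summed level of both genes, Yap1 made up 76.4% ± 4.18 (SD, n = 5) in WT at baseline, 67.4% ± 7.72 (SD, n = 5) in WT after PHx, 59.8% ± 2.97 (SD, n = 5) in KO at baseline and 49.7% ± 7.55 (SD, n = 5) in KO after PHx. The share in KO at baseline, 56.2% to 62.9%, lay below all WT baseline libraries, 69.4% to 80.4%.

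Whole liver holds several cell types, and in these data a change in the number of cells of a type and a change in RNA per cell cannot be told apart. Markers of other cells were also compared by genotype, where 11.1% of all genes tested were called higher in KO at baseline. There the summed level of 10 stellate cell markers was 488 to 658 CPM in KO and 182 to 304 CPM in WT, with 7 of 10 called higher. Of 8 cholangiocyte markers tested 3 were called higher, with 86.7 to 403 CPM over 9 markers in KO and 34.4 to 81.1 CPM in WT. Endothelial markers summed to 285 to 329 CPM in KO and 225 to 255 CPM in WT (1 of 9 called higher), and macrophage markers to 302 to 385 CPM and 130 to 224 CPM (2 of 7 called higher). None of the markers in these 4 lists was at 0 in any group. The part of these cells in the higher Wwtr1 and Tead2 was not tested.

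The 4 TEAD genes, whose proteins share a conserved DNA-binding domain, moved in different ways. Tead2 differed by genotype, Tead1 and Wwtr1 were the members called in both responses to PHx, Tead4 was called in the genotype difference after PHx and in the KO response, and Tead3 was not called. A few alternatives also called Tead1, Tead3 and Tead4 elsewhere, as given below.

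Tead2 (ENSMUSG00000030796, chromosome 7, 45215753 to 45233644, plus strand, protein coding) is known as the TEAD gene of early embryo and neural precursors. It was low in every WT library, with 0.325, 0.650, 0.463, 0.826 and 0.550 CPM at baseline in replicates 1 to 5 and with 0.654 CPM at 30 h, 0.696 and 0.951 CPM at 40 h and 0.284 and 1.06 CPM at 48 h after PHx. In KO at baseline it stood at 6.54, 4.99, 6.10, 5.03 and 5.12 CPM in replicates 7, 8, 10, 11 and 12. After PHx KO libraries held 6.67 CPM at 30 h, 11.6 and 12.6 CPM at 40 h and 15.9 and 16.4 CPM at 48 h. The KO libraries did not overlap with WT at either stage, and the KO libraries after PHx did not overlap with those at baseline. The genotype difference was a log2 of 3.28 (SE 0.34, adjusted p 2.91e-06) at baseline and 4.10 (SE 0.35, adjusted p 3.76e-07) after PHx. The response in KO was 1.19 (SE 0.30, adjusted p 0.00837), and that in WT 0.36 (SE 0.34, adjusted p 0.482). The difference between these responses, 0.82 (SE 0.45, adjusted p 0.443), was not called. Cd37, a gene of white blood cells, overlaps Tead2 on the other strand.

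Tead4 (ENSMUSG00000030353, chromosome 6, 128224288 to 128300823, minus strand, protein coding), known for its role in the trophectoderm, was close to the limit of detection in WT at baseline. The 5 libraries there held 1, 3, 2, 10 and 2 counts, or 0.0650, 0.150, 0.103, 0.459 and 0.0917 CPM in replicates 1 to 5. In KO at baseline the level was 1.83, 0.254, 1.00, 0.125 and 0.657 CPM in replicates 7, 8, 10, 11 and 12, and in WT after PHx 0.741 CPM at 30 h, 0.739 and 0.761 CPM at 40 h and 1.24 and 0.481 CPM at 48 h. In KO after PHx it was 5.44 CPM at 30 h, 1.03 and 15.2 CPM at 40 h and 3.66 and 29.8 CPM at 48 h. These KO libraries spread widely, and the lowest, replicate 10, lay inside the WT range. KO exceeded WT after PHx by a log2 of 3.79 (SE 0.78, adjusted p 0.00152), and the KO response was 3.82 (SE 0.78, adjusted p 0.00248). Replicate 8 alone held 62.7% of the counts of the group, and the mean without it was 6.33 CPM over 4 libraries. Leaving out each library in turn gave a log2 from 2.98 to 4.08 for the genotype difference, called each time. At baseline the genotype difference of 2.10 (SE 0.83, adjusted p 0.0924) was not called, nor was the WT response of 2.12 (SE 0.84, adjusted p 0.0781), although every WT library after PHx was above every WT baseline library. The baseline difference was called in 2 of 15 alternatives and ran from 1.56, without KO baseline replicate 7, to 2.85, without WT baseline replicate 4. The WT response was called in 4 of 18 (lowest adjusted p 0.0138) and ran from 1.94 to 2.88, the highest again without WT baseline replicate 4.

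Tead1 (ENSMUSG00000055320, chromosome 7, 112679318 to 112906807, plus strand, protein coding), a TEAD gene active in many adult tissues, varied more within groups. WT baseline libraries had 11.7, 11.1, 7.36, 1.93 and 2.06 CPM in replicates 1 to 5, and KO baseline libraries 13.7, 12.1, 18.3, 15 and 13.2 CPM in replicates 7, 8, 10, 11 and 12. After PHx there were 14 CPM at 30 h, 45.8 and 17.8 CPM at 40 h and 59.0 and 6.49 CPM at 48 h in WT. KO libraries held 228 CPM at 30 h, 22.3 and 32.5 CPM at 40 h and 61.5 and 54.7 CPM at 48 h. Baseline KO lay above all of baseline WT, but with the wide spread of this gene the difference, a log2 of 1.09 (SE 0.64, adjusted p 0.263), was not called. Tead1 rose after PHx by 2.07 (SE 0.66, adjusted p 0.0314) in WT and by 2.46 (SE 0.66, adjusted p 0.0105) in KO. The WT call was lost without WT baseline replicate 3, 4 or 5 or WT PHx replicate 2 or 4, with an adjusted p up to 0.0977. The KO call was kept without each library, and the mean of KO after PHx was 79.8 CPM with replicate 12 and 42.7 CPM without it. KO against WT after PHx, 1.48 (SE 0.64, adjusted p 0.0972), was not called. It was 0.58 (adjusted p 0.489) without KO PHx replicate 12, and 4 of 16 alternatives called it: library size alone (adjusted p 0.0334), DESeq2 (0.0485), and the fits without WT PHx replicate 4 (1.95, adjusted p 0.047) or KO PHx replicate 10 (1.72, adjusted p 0.0424).

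Tead3 (ENSMUSG00000002249, chromosome 17, 28331671 to 28350817, minus strand, protein coding), known from placenta and from several adult tissues, had overlapping levels in all groups and was called in no main comparison. Its libraries ran from 8.80 to 12.8 CPM in WT at baseline, from 8.14 to 11.1 CPM in WT after PHx, from 9.72 to 12 CPM in KO at baseline and from 9.57 to 14.2 CPM in KO after PHx. The genotype difference was -0.01 (SE 0.16) at baseline, with a 95% interval from -0.34 to 0.32, and 0.29 (SE 0.16, adjusted p 0.2) after PHx. The latter was called higher in KO in 1 of 16 alternatives (adjusted p 0.0157). At 40 h the difference was 0.35 (adjusted p 0.355), called in 1 of 2 alternatives (adjusted p 0.0387).

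Scaled by exon length, the mixture of TEAD transcripts differed between the groups. Tead3 made up 70.6% ± 10.5 (SD, n = 5) of the summed TEAD level in WT at baseline, 42.4% ± 16.7 (SD, n = 5) in WT after PHx, 39.2% ± 5.41 (SD, n = 5) in KO at baseline and 15.9% ± 6.84 (SD, n = 5) in KO after PHx. Tead2 made up 5.50% ± 2.50 (SD, n = 5) in WT at baseline, 4.90% ± 3.24 (SD, n = 5) in WT after PHx, 29% ± 1.77 (SD, n = 5) in KO at baseline and 24.3% ± 13.1 (SD, n = 5) in KO after PHx. The summed TEAD level in CPM per kb was 2.23 ± 0.371 for WT at baseline, 3.95 ± 1.73 for WT after PHx, 3.99 ± 0.367 for KO at baseline and 13.4 ± 6.15 for KO after PHx (SD, 5 libraries each). Within KO after PHx the leading TEAD gene varied from mouse to mouse, with Tead1 at 78.4% in replicate 12, Tead4 at 47.4% in replicate 8 and Tead2 at 41.8% in replicate 10. The shares were not tested.

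**Figure D2:**
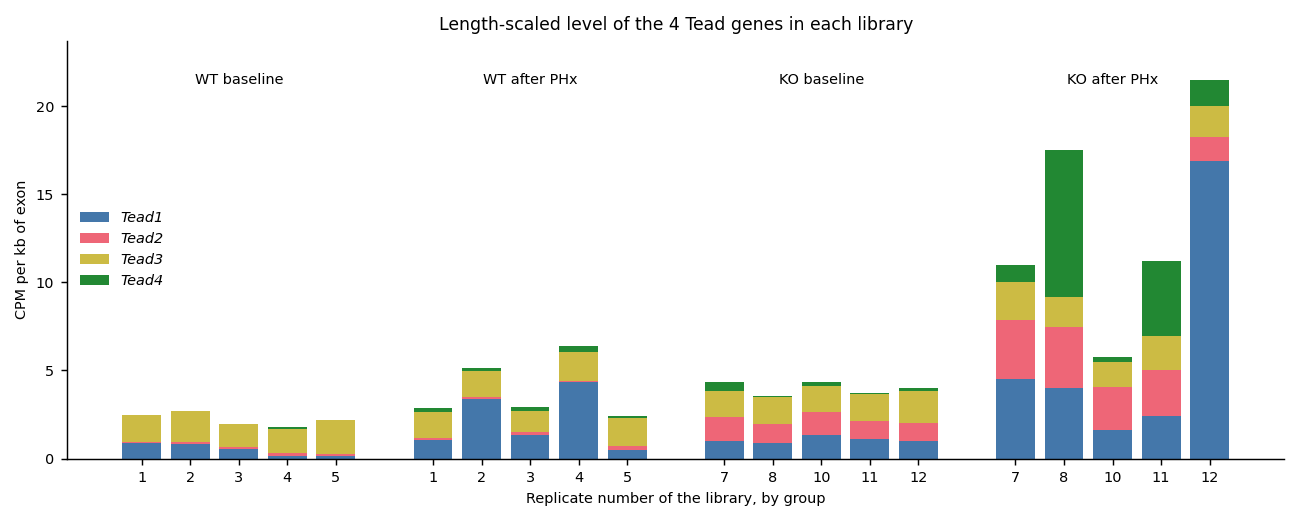
Stacked bars of Tead1, Tead2, Tead3 and Tead4 in each library, in CPM per kb of exon, by group and replicate number. WT baseline bars are low and mostly Tead3 (61.4% to 86.7% of each bar), KO baseline bars add Tead2, and KO after PHx bars reach from 5.77 to 21.5 CPM per kb with a different leading gene in replicates 8, 10 and 12.

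Lats2 (ENSMUSG00000021959, chromosome 14, 57689662 to 57758388, minus strand, protein coding) encodes a kinase that phosphorylates YAP and TAZ and is itself known as a target of YAP. At baseline its libraries ran from 14.3 to 18.1 CPM in WT and from 15.6 to 19.7 CPM in KO. After PHx WT libraries held 14.5 CPM at 30 h, 16.2 and 13 CPM at 40 h and 18.3 and 17.1 CPM at 48 h, and KO libraries 24.8 CPM at 30 h, 14.2 and 19.8 CPM at 40 h and 28.1 and 32.3 CPM at 48 h. Of the KO libraries only replicate 10 was inside the WT range. The difference after PHx, a log2 of 0.59 (SE 0.18, adjusted p 0.0231), was called higher in KO, with the call lost in a fit of only the 10 libraries compared (log2 0.61, adjusted p 0.142) and without WT PHx replicate 1 or 3 or KO PHx replicate 8. The KO response, 0.40 (SE 0.18, adjusted p 0.1), was not called in the main fit but was called in 2 of 18 alternatives (lowest adjusted p 0.0112). Gm49361 overlaps Lats2 on the same strand, and how the counting treated reads in both is not given in the sources used here.

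Amotl2 (ENSMUSG00000032531, chromosome 9, 102716672 to 102733418, plus strand, protein coding) encodes an angiomotin that binds YAP at cell junctions, and its gene is a known YAP target. The means were 33.9 ± 6.77 CPM (SD, n = 5) in WT at baseline, 30.5 ± 8.67 CPM (SD, n = 5) in WT after PHx, 28.4 ± 8.80 CPM (SD, n = 5) in KO at baseline and 43.6 ± 25.7 CPM (SD, n = 5) in KO after PHx. KO libraries after PHx split, with 51.6 CPM at 30 h, 19.8 and 66.5 CPM at 40 h and 12.8 and 67.0 CPM at 48 h. No comparison was called. The KO response of 0.62 (SE 0.36, adjusted p 0.198) ran from 0.40 to 0.88 as each library was left out and was called without KO PHx replicate 7 (adjusted p 0.048). The 95% interval of KO against WT after PHx ran from -0.24 to 1.27 on the log2 scale.

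Ankrd1 (ENSMUSG00000024803, chromosome 19, 36111961 to 36120099, minus strand, protein coding), a muscle ankyrin repeat gene used as a YAP reporter in many cell types, was near the detection limit in liver. It had 5, 1, 0, 15 and 1 counts in the WT baseline libraries, where a count of 0 allows up to 0.154 CPM in replicate 3. After PHx WT libraries held 0.172 to 1.60 CPM, KO baseline libraries 0.332 to 0.676 CPM and KO libraries after PHx 0.267 to 0.966 CPM. No comparison was called, the widest being the WT response, 1.90 (SE 0.75, adjusted p 0.0777). That response was called in 4 of 16 alternatives (lowest adjusted p 0.0176), and ran from 1.54 to 3.05 as each library was left out, with the highest value without WT baseline replicate 4, which held 15 of the 22 counts of its group. The 95% interval of KO against WT after PHx ran from -1.61 to 1.23 on the log2 scale.

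Vgll3 (ENSMUSG00000091243, chromosome 16, 65815257 to 65866368, plus strand, protein coding), a TEAD cofactor of the vestigial-like family that competes with YAP for TEAD, was too low for the test. It had 19 counts over the WT baseline group, of which 3 libraries had 0, 13 counts in WT after PHx, 19 in KO at baseline and 123 in KO after PHx. Of these 123 counts, 104 came from replicate 8, at 48 h, with 2.28 CPM, and the other 4 libraries of the group had 0.0947 to 0.222 CPM. A count of 0 allowed up to 0.195 CPM in WT baseline replicate 1. At counts this low a difference between the groups was not detectable apart from that library.

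**Figure D3:**
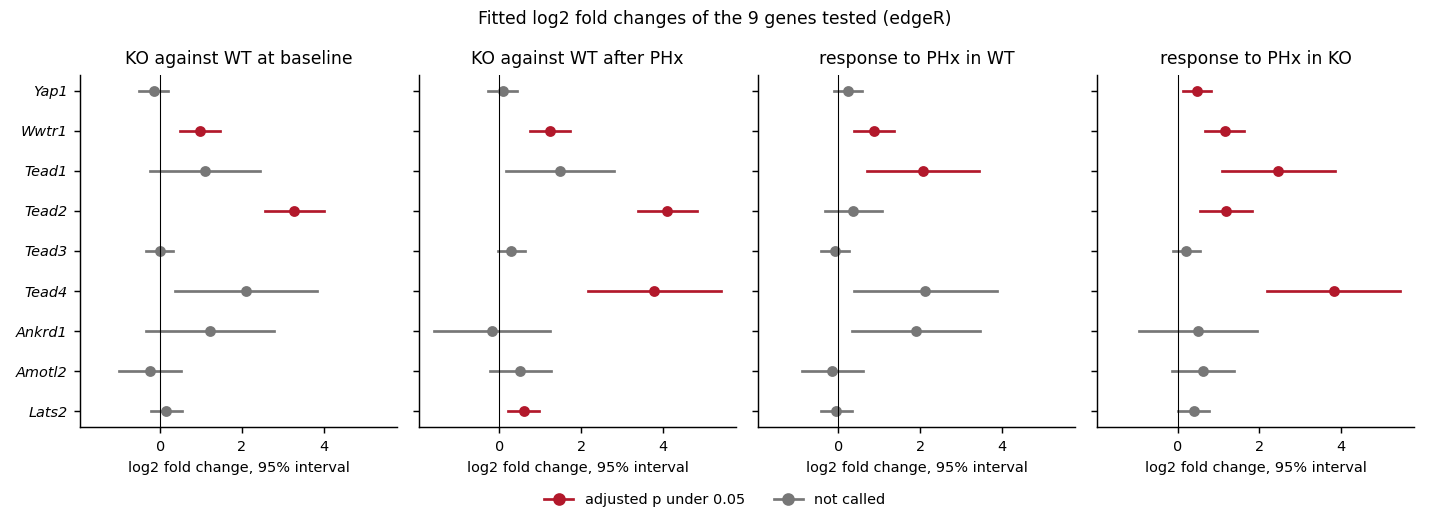
Log2 fold change (points) with 95% interval (lines) of the 9 genes tested, for KO against WT at baseline and after PHx and for the response to PHx in each genotype; red marks an adjusted p under 0.05. Tead2 and Wwtr1 are red in both genotype comparisons, Wwtr1 and Tead1 in both responses, and Tead3, Ankrd1 and Amotl2 in none.

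In the response to PHx 2 of the 9 genes were called in WT, Wwtr1 and Tead1, where 20.1% of all genes tested were called, 11.4% higher and 8.68% lower. This count moved between alternatives. Tead1 lost its WT call in 5 of 18, while Tead4 gained one in 4 of 18, Ankrd1 in 4 of 16 and Yap1 in 1 of 18. In KO 5 of 9 were called, Yap1, Wwtr1, Tead1, Tead2 and Tead4, where 29.5% of all genes were called, 17.5% higher and 12.1% lower. All of them rose. The medians of the 9 were 0.36 in WT and 0.62 in KO, beside 0.04 and 0.10 over all genes tested. These comparisons share libraries with the genotype comparisons, so their values are not independent. For the difference between the responses, 0 of the 9 genes were called by edgeR, where 0.389% of all genes were called. None of the 9 reached an unadjusted p under 0.05, the lowest being 0.0845 for Tead2, and DESeq2 also called 0. The interval of the difference ran from -0.40 to 0.95 for Wwtr1 and from -0.67 to 4.06 for Tead4, so similar and clearly larger responses in KO are both inside it.

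Markers of dividing cells varied widely between libraries after PHx. The summed level of 10 markers of the G2 and M phases ran from 2.43 to 5.72 CPM in WT at baseline, from 30.4 to 137 CPM in KO at baseline, from 1.91 to 1251 CPM in WT after PHx and from 12.3 to 765 CPM in KO after PHx. Cholangiocyte markers after PHx summed to 35.6 to 257 CPM in WT and 141 to 609 CPM in KO, with 6 of 8 tested called higher in KO (16% of all genes tested), and stellate markers to 205 to 261 CPM and 307 to 552 CPM, with 4 of 10 called higher. The part of these cells in the levels of Wwtr1, Tead2, Tead4 and Lats2 after PHx was not tested.

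Sample titles number 9 mice at both stages, so that each baseline value can be set beside the value after PHx of the same animal. Wwtr1, Tead1 and Tead4 were higher after PHx in 4 of 4 WT mice and 5 of 5 KO mice. Tead2 was higher in 5 of 5 KO mice and in 3 of 4 WT mice, and Yap1 in 4 of 5 and 3 of 4. The change of Wwtr1 in log2(CPM + 1) ran from 0.53 to 1.44 in WT and from 0.16 to 1.72 in KO, and that of Tead4 from 0.44 to 0.68 in WT and from 0.02 to 4.62 in KO. KO mouse 10, sampled at 40 h, had the lowest KO change for Wwtr1, Tead1 and Tead4.

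**Figure D4:**
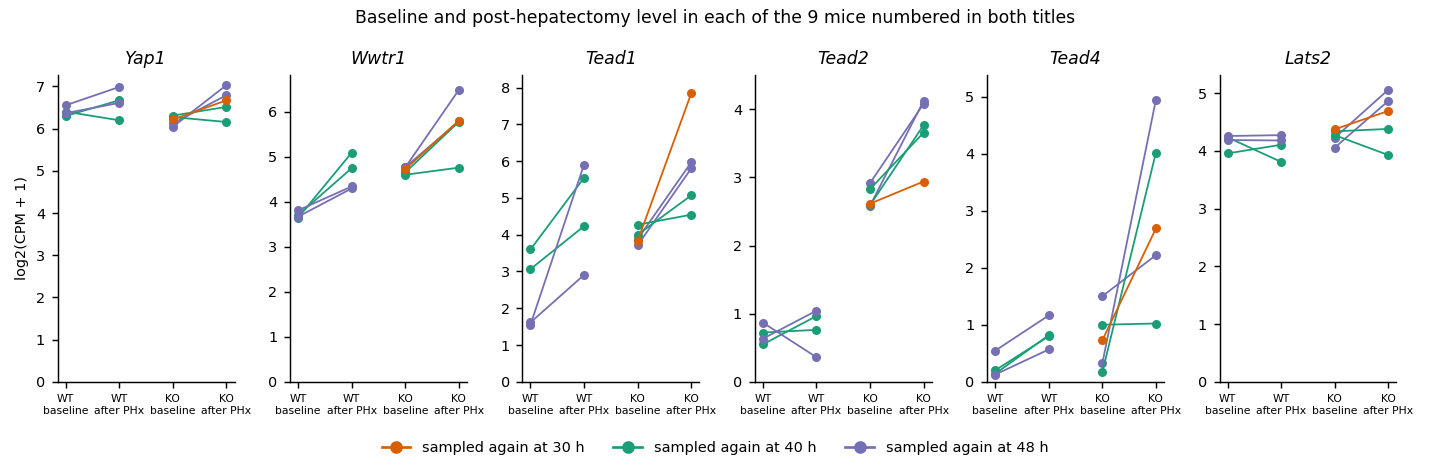
Level of 6 of the genes in log2(CPM + 1) at baseline and after PHx, with a line for each of the 9 mice numbered at both stages (4 WT, 5 KO), coloured by the hour of the second sample. Lines for Wwtr1, Tead1 and Tead4 go up in every mouse, and the Tead2 lines of KO lie above those of WT at both stages.

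The genotypes were also compared within a time point, with 2 libraries per genotype, in a fit that shared its estimate of spread over all groups. At 40 h Tead2 was called higher in KO, by a log2 of 3.87 (SE 0.49, adjusted p 0.000478), as 1 of 9 genes, where 13.3% of all genes were called, 8.61% higher and 4.68% lower. At 48 h 4 of 9 were called, where 24.3% of all genes were called, 13.7% higher and 10.7% lower. These were Tead2 with 4.57 (SE 0.51, adjusted p 7.48e-05), Tead4 with 4.28 (SE 1.28, adjusted p 0.0247), Wwtr1 with 1.91 (SE 0.30, adjusted p 0.000631) and Lats2 with 0.77 (SE 0.22, adjusted p 0.0189). Wwtr1 at 40 h differed by 0.44 (SE 0.29, adjusted p 0.317), with WT at 33 and 25.8 CPM and KO at 26 and 53.7 CPM. Whether the genotype difference itself changed between 40 h and 48 h was not tested. Other lists also differed by genotype at these times. The median log2 fold change of the 10 G2 and M markers was 4.31 at 40 h, with 0 called, and -4.46 at 48 h, with 3 called lower, and that of the 8 cholangiocyte markers tested was 2.20 with 3 called higher and 3.09 with 5 called higher. Their part in the calls at each time was not tested. The 30 h point has 1 library per genotype and allows no test of its own.

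A list of 28 further pathway genes, called upstream genes below, held mostly genes that act upstream of YAP and TAZ, such as the MST kinases, their adaptors, junction proteins and the LIM proteins that inhibit LATS. It also held the TEAD cofactors Vgll1, Vgll2 and Vgll4, which do not act upstream, and 26 of the 28 were tested, all but Vgll1 and Vgll2. At baseline 5 were called higher and 1 lower in KO, where 11.1% of all genes were higher and 4.89% lower, with a median of -0.04 beside -0.03. More were called with only the groups compared in the fit, as given with the alternatives below. Wtip, which encodes an Ajuba-family LIM protein, was 2.20 higher (SE 0.30, adjusted p 5.06e-05), at 5.48 ± 1.00 CPM in KO against 1.19 ± 0.301 CPM in WT (SD, n = 5 each). Also higher were Amot, an angiomotin, by 1.80 (SE 0.45, adjusted p 0.00967), Map4k4, a kinase that can act on LATS beside the MST kinases, by 1.68 (SE 0.47, adjusted p 0.0182), Ajuba by 1.51 (SE 0.33, adjusted p 0.0042) and Wwc2 by 0.76 (SE 0.23, adjusted p 0.0305, lost without 7 of the 10 libraries in turn). Stk38l, a kinase related to LATS, was lower by -0.70 (SE 0.16, adjusted p 0.00546), a call lost with library size alone as the scaling (adjusted p 0.44).

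After PHx 6 of the 26 upstream genes were called higher in KO and 1 lower, with a median of 0.30. These 7 calls of 26 are near the 24.2% of all genes called in that comparison, and they were 11 without KO PHx replicate 10 and 2 with only the 10 libraries compared. Wtip led with 2.02 (SE 0.29, adjusted p 6.99e-05). Frmd6, a junction protein that activates the pathway, was higher by 1.34 (SE 0.32, adjusted p 0.00456). Ptpn14, Amot, Amotl1 and Sav1 were called with log2 values from 1.08 to 1.66, and each of these 4 calls was lost when only the 10 libraries compared were fitted. In the response to PHx 5 were called higher and 2 lower in WT, where 20.1% of all genes were called, led by Ajuba with 2.36 (SE 0.34, adjusted p 0.000156). Vgll4, a TEAD cofactor that opposes YAP, fell by 1.11 in WT (SE 0.23, adjusted p 0.00297), from 35.3 ± 7.92 to 16.3 ± 4.12 CPM (SD, n = 5 each), a call lost with library size alone (adjusted p 0.0548). In KO 5 rose and 1 fell, 6 of 26 beside 29.5% of all genes, a count that was 3 without KO baseline replicate 10, 11 or 12 or KO PHx replicate 8 and 12 without KO PHx replicate 10. Among them were Sav1, the adaptor of the MST kinases, at 1.45 (SE 0.32, adjusted p 0.00379), Ajuba at 1.35 (SE 0.33, adjusted p 0.0063) and Frmd6 at 1.21 (SE 0.32, adjusted p 0.00942). Within time points 3 upstream genes were called higher and 1 lower at 40 h, and 6 higher and 1 lower at 48 h, near the 13.3% and 24.3% of all genes called at these times. For the difference between the responses edgeR and DESeq2 each called 0 of the 26. Where a count under an alternative is given here, the calls over all genes in that fit are not set beside it.

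Among the genes downstream, 18 further known YAP and TEAD targets were listed and 17 were tested. Like the other lists, this one was chosen with earlier results of these data known. Its counts beside the share of all genes are therefore a description and not independent support. In KO at baseline 6 of 17 were called higher and 0 lower, where 11.1% of all genes were higher, with a median of 0.75 beside -0.03 for all genes. After PHx 12 of 17 were called higher and 0 lower, where 16% of all genes were higher, with a median of 1.93 beside -0.01. The known targets Ankrd1, Amotl2 and Lats2, described above, are not in these counts. None of them was called at baseline, and only Lats2 was called after PHx. Without KO PHx replicate 8 the count after PHx was 7. With only the 10 libraries compared the count was 10 at baseline and 6 after PHx. Calls over all genes in these fits are not given here. Many of these targets are also known from stellate and other mesenchymal cells, of whose 10 markers 7 were called higher at baseline and 4 after PHx, and their part in these counts was not tested.

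At baseline Ccn1, which encodes a matrix protein and is one of the best known YAP targets, was 2.28 higher in KO (SE 0.48, adjusted p 0.00292). Its level was 82.0 to 225 CPM in KO and 6.02 to 60.8 CPM in WT, with no overlap. Tgfb2 was higher by 2.53 (SE 0.69, adjusted p 0.017), Ccdc80 by 1.49 (SE 0.29, adjusted p 0.0017), and Axl, a receptor tyrosine kinase, by 1.43 (SE 0.33, adjusted p 0.00559). Arhgef17 was higher by 1.21 (SE 0.39, adjusted p 0.0397), a call lost without 8 of the 10 libraries in turn.

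Fjx1, which encodes a Golgi-resident relative of the Drosophila protein Fj, had after PHx 0.877 to 9.08 CPM in KO and 0 to 0.304 CPM in WT, a log2 of 5.18 (SE 0.76, adjusted p 7.55e-05). Its group mean reached 1 CPM, the limit for naming a gene here, only in regenerating KO liver (4.61 CPM). Means elsewhere were 0.0455 CPM for resting WT, 0.329 CPM for resting KO and 0.121 CPM for regenerating WT. With those groups near the detection limit, the size of this fold change is uncertain. Nt5e, which encodes the ectoenzyme CD73, had 12.8, 22.5, 54.3, 58.4 and 101 CPM in KO in ascending order and 5.80 to 16.7 CPM in WT, a log2 of 2.45 (SE 0.42, adjusted p 0.000348). Myof was higher by 3.91 (SE 0.79, adjusted p 0.00138), at 1.61 to 73.2 CPM in KO (median 7.44) and 0.872 to 3.46 CPM in WT. Gadd45a was higher by 3.08 (SE 0.63, adjusted p 0.00154), at 6.42 to 55.8 CPM in KO (median 9.80) and 1.61 to 4.57 CPM in WT. Igfbp3 was higher by 2.62 (SE 0.88, adjusted p 0.036), a call lost under 8 of 16 alternatives. For Ccn2, the gene for connective tissue growth factor, the difference of 3.13 (SE 0.90, adjusted p 0.0159) rested on KO replicate 8 with 453 CPM, while the other 4 KO libraries had 6.37 to 25.9 CPM and the call was lost without that library and under 3 other alternatives.

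Calls in both directions were made for Gadd45a, Ccn1 and Igfbp3. Gadd45a, higher in KO after PHx, fell in WT after PHx by 1.90 (SE 0.61, adjusted p 0.0332), a call lost under 8 of 18 alternatives, the replicate block among them (log2 -1.16, adjusted p 0.175). Ccn1 fell after PHx in KO by 2.30 (SE 0.48, adjusted p 0.00281), from 170 ± 61.2 to 34.4 ± 19.5 CPM (SD, n = 5 each), and every KO library after PHx was below every KO baseline library. In WT it fell by 1.40 (SE 0.47, adjusted p 0.0416), a call lost under 12 of 18 alternatives, the replicate block among them (log2 -0.77, adjusted p 0.417). Igfbp3, which encodes a binding protein of insulin-like growth factors, was lower in KO at 40 h by -2.38 (SE 0.64, adjusted p 0.0261), at 6.03 and 4.81 CPM in KO and 21 and 35.2 CPM in WT. At 48 h it was higher by 4.29 (SE 0.69, adjusted p 0.000754), at 242 and 211 CPM in KO and 21.2 and 1.89 CPM in WT. Whether the difference changed between these times was not tested. Of the 17 targets, KO exceeded WT in 5 calls at 40 h and in 9 at 48 h, where 8.61% and 13.7% of all genes were higher, and Igfbp3 at 40 h was the one call in the other direction. In the KO response 5 targets rose and 2 fell, where 29.5% of all genes were called. These 7 calls were 4 with the replicate block, where Myof, Ccn2 and F3 lost theirs, 3 with only the 10 libraries compared, and 4 without KO baseline replicate 11 or KO PHx replicate 8. Calls over all genes in these fits are not given here. The targets that rose in each alternative were Fjx1 at 3.78 (SE 0.69, adjusted p 0.00135) and Nt5e at 2.34 (SE 0.42, adjusted p 0.00124). The value for Fjx1 starts from a mean of only 0.329 CPM in resting KO liver, so its size is uncertain. In WT 1 rose and 2 fell, near the 20.1% of all genes called there and 0 with the replicate block, and for the difference between the responses edgeR called 0 of the 17 and DESeq2 1.

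**Figure D5:**
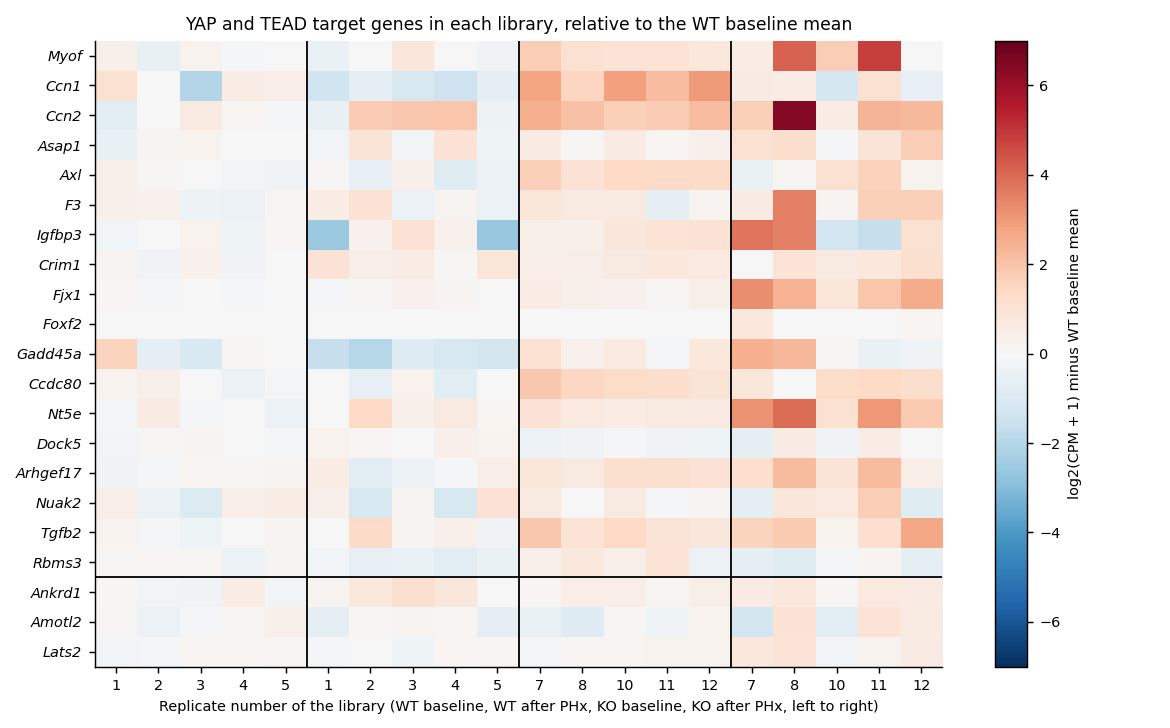
Each of 18 listed targets (above the line) and of Ankrd1, Amotl2 and Lats2 (below it) in the 20 libraries, as log2(CPM + 1) minus the mean of the WT baseline libraries; columns are libraries by replicate number. Ccn1, Axl and Ccdc80 are red through KO at baseline, and Ccn2, Myof and Nt5e reach their highest values in KO libraries after PHx, such as replicate 8 with 453 CPM of Ccn2.

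Across the 20 libraries, the genes tested with a mean of at least 1 CPM whose log2(CPM + 1) followed Yap1 most closely, out of 12530, were Gak (Pearson r 0.94, and 0.91 for deviations from group means), Utp18 (0.91 and 0.86) and Clp1 (0.90 and 0.84). For Wwtr1 they were Cd24a (0.96 and 0.84), Dcbld1 (0.96 and 0.79) and Chmp4c (0.95 and 0.73). Among the members, Lats2 followed Yap1 with an r of 0.67 over all libraries and 0.86 for deviations from group means, and Tead4 followed Wwtr1 with 0.87 and 0.68. Yap1 and Wwtr1 had an r of 0.41 with each other and 0.28 for deviations. These values describe 20 libraries that share the 4 groups and, for 9 mice, the animal.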

How the data were processed

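Liver RNA was measured in 20 libraries, 5 mice per genotype at 2 stages. The values deposited by the authors are raw counts per Ensembl gene, without normalisation. Per the labels' protocols and design text, libraries were TruSeq, paired-end on a NovaSeq 6000, from 1000 ng of RNA with an integrity number above 8. FastQC 0.11.5 was used, with fastp 0.20.0 for trimming per the design text and Trimmomatic 0.36 per the submitters' processing notes, and uniquely mapped reads on mm10 were counted. The aligner, the counter, the strand setting and the annotation are not given in the sources used here. Reads that map to several places are lost.

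Symbols and coordinates came from GENCODE M21 (mm10), which holds 46091 of 46603 identifiers. Tests were two-sided quasi-likelihood tests in edgeR 4.0.16 (R 4.3.3), with TMM scaling, filterByExpr on the 4 groups (14661 genes kept) and 1 fit with 4 group means. A second fit, with a mean per genotype and time, gave 40 h and 48 h. A gene is called where its p, adjusted by Benjamini and Hochberg over the 14661 genes, is below 0.05. Intervals use the t distribution of the fit. CPM is relative to the TMM-scaled total. A count of 0 allows up to 3 counts (95%), and this limit covers counting error only, since reads carry no molecular identifiers.

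Members and lists were chosen with earlier results of these data known. From the upstream list (28 genes) and the target list (18), up to 6 called genes per comparison with the highest absolute log2 fold change and a mean of at least 1 CPM are named. Likeness was searched among genes tested with a mean of at least 1 CPM. Marker lists of hepatocytes, cholangiocytes, stellate, endothelial, macrophage, lymphocyte, mesothelial and dividing cells are given by their summed levels, counts of called genes and medians, with no test of a list. Lymphocyte markers summed to 5.45 to 9.23 CPM in WT and 7.37 to 24.5 CPM in KO at baseline, and mesothelial markers to 0.400 to 1.18 CPM and 1.06 to 3.82 CPM. Alternatives were library size alone, 2 other filters, only the groups compared, time as a term, DESeq2 1.42.0, each library left out, and the mouse number as a block. The labels say each mouse gave both samples, so numbers pair samples for 9 mice, and WT baseline replicate 1 has no number. Residuals of the same mouse correlated from -0.08 to 0.21 (9 pairs) and those of different mice from -0.24 to 0.30 (36 pairs).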

Additional observations from a re-analysis of the deposited data

Results flagged for a closer look

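Each of the 10 genes was searched in each of the 4 groups of 5 for a library far from the others, by the gap to the nearest library over the range of the group (Dixon's critical value 0.71). Of 40 searches 3 found one. For normally distributed values chance alone gives about 1 in 20, so 3 of 40 is near that rate. At counts as low as those of Tead4 and Vgll3 the rate by chance is not known. Tead1 in KO after PHx had 228 CPM in replicate 12, the 30 h library, and 22.3 to 61.5 CPM in the other 4. Tead4 in WT at baseline had 0.459 CPM in replicate 4, or 10 counts, and 0.0650 to 0.150 CPM in the other 4. Vgll3 in KO after PHx had 2.28 CPM in replicate 8 at 48 h and 0.0947 to 0.222 CPM in the other 4. Replicate 8 also held the highest Wwtr1, Tead2, Tead4, Amotl2 and Lats2 of its group and had the highest total count of all libraries, 30461351.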

How the results depend on the processing

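Of 881 log2 fold changes of the 9 genes under alternatives, 812 kept direction and side of the threshold, 20 lost a call, 22 gained one and 27 changed sign, none of these in a called value. Wwtr1 in the 4 main comparisons, Tead2 in both genotype comparisons and the KO response, and Tead4 after PHx and in the KO response were called in each alternative. With library size alone the median of all genes moved by 0.48 at baseline, 0.38 after PHx, 0.36 in the WT and 0.27 in the KO response, and the share of calls that were higher went from 69.5% to 96.9%, 66.1% to 92.9%, 56.8% to 86.7% and 59.1% to 80.9%, and for the difference from 42.1% to 15.8%. Members called then were 4 at baseline, 5 in the WT response and 3 at 40 h, upstream genes 12 after PHx and 7 at 40 h, and targets 1 in the WT response. Calls over all genes then were 3521 higher and 113 lower at baseline (1631 and 717 with TMM). They were 3897 and 296 after PHx (2342 and 1202), and 3796 and 582 in the WT response (1677 and 1273). For the other alternatives, counts of members and list genes are given without the calls over all genes. Signs that changed there were at baseline Yap1 (0.31), Tead3 (0.46) and Amotl2 (0.21), after PHx Ankrd1 (0.26), in the WT response Tead3 (0.27), Amotl2 (0.20) and Lats2 (0.31), and at 40 h Yap1 (0.44) and Tead1 (0.36). Without the filter targets were 1 in the WT response and upstream genes 3 in the KO response, Tead3 was 0.06 at baseline and Lats2 0.01 in the WT response. With only the groups compared, upstream genes were 11 at baseline, 2 after PHx and 3 in the KO response, targets 10, 6 and 3, and Tead3 0.02 at baseline. DESeq2 called 4 members in the WT response and 1 target for the difference, with Tead3 at 0.01 at baseline. With the replicate block by mouse, targets were 0 in the WT and 4 in the KO response, and Yap1 lost its KO call. The difference of responses for Tead1 was -0.43 with the block, -0.07 for the same 18 libraries without it (added after seeing the data, with 0 targets in the WT response) and -0.18 with time as a term. The causes were not tested. Leaving out each library gave 1 to 3 members in the WT response; upstream genes 5 to 11 after PHx, 4 to 7 in the WT and 3 to 12 in the KO response and 0 to 1 for the difference; targets 7 to 12, 0 to 3, 4 to 10 and 0 to 2. The counts of 11 and 12 upstream genes and of 2 targets came without KO PHx replicate 10, and that of 7 targets without KO PHx replicate 8. By gene the range was -0.06 to 0.08 for Tead3 at baseline, -0.01 to 0.18 for Yap1 and -0.47 to 0.17 for Ankrd1 after PHx, -0.25 to 0.01 for Amotl2 and -0.09 to 0.01 for Lats2 in the WT response, and -0.01 to 0.45 for Wwtr1 and -0.51 to 0.81 for Tead1 in the difference. Ccn2 in the KO response ran from -0.21, without KO PHx replicate 8, to 2.64. Depth limits Ankrd1, Vgll3 and Tead4 in WT.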

Other observations

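With no filter on low counts Vgll3 could be fitted. KO against WT after PHx was then a log2 of 2.46 (adjusted p 0.15, edgeR) and the KO response 1.93 (adjusted p 0.227), neither of them called, with 104 of the 123 counts of the group in 1 library.

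Of the 24 upstream genes with a RefSeq promoter window, 33.3% held the TEAD motif, as did 27.3% of the 11 targets, beside 16.6% of all genes and 87.5% of the 8 members with a window. Wtip, whose RNA was higher in KO at both stages, held 4 matches in 1 window. Axl and Ccn1 held 1 each, and Nt5e and Gadd45a held 0. These shares are descriptions, were not tested, and come from windows that do not reach distal enhancers.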
